A study of Homo sapiens with 12 samples.

Results

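The mRNAs described here are those of 6 genes that the transcription factor p53 switches on: CDKN1A, MDM2, BTG2, TP53INP1, AEN and PERP. Each is described by the regions at which AGO2 was crosslinked to its RNA, taken as the deposited regions that overlap the gene's RefSeq span on the gene's strand. They held 30 of the 2921 regions found with FH-AGO2 5xA and 20 of the 1190 regions found with FH-AGO2 WT. The 6 genes were chosen from these same region lists, so their numbers of regions, covered bases, positions and sharing are descriptions and were not tested.

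AGO2 is the Argonaute protein that holds a miRNA and is guided by it to mRNAs, most often in the 3' UTR, where it recruits factors that shorten the poly(A) tail and block translation. p53 is a stress-activated transcription factor. Its products stop the cell cycle, start apoptosis and, through MDM2, end the response by removing p53 itself. miRNAs act on several of these products, so that the mRNAs p53 induces are also a place where miRNA silencing can be observed.

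RNA bound by AGO2 was mapped by eCLIP, in which ultraviolet light links RNA to protein in the cell, the protein is immunoprecipitated and the RNA that comes down with it is sequenced. HCT116, a human colorectal carcinoma cell line with wild-type p53, was grown for 48 h and crosslinked at 400 mJ/cm2. FH-AGO2 5xA, whose clustered phosphorylation sites are changed to alanine, was set against FH-AGO2 WT. Both proteins carried a tag and were precipitated with an anti-FLAG antibody, and no drug or p53-activating treatment is named in the labels. The design also held AGO2 knockout cells as a control. The sources used here do not say whether the tagged cells still have their own AGO2, how strongly the tagged proteins were expressed, or whether each line is a single clone. Of the 12 samples, the 2 immunoprecipitates of each genotype stand behind its list, and the inputs and knockout libraries were not analysed here.

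Each genotype has 1 list that merges its 2 replicates, so no replicate error could be given, and the depth behind a region is unknown. A region list holds no RNA level, so more RNA of a gene and more AGO2 on each RNA cannot be told apart. The 5xA list was longer as a whole, with 2.45 times as many regions and 2.35 times as many covered bases as the WT list. Every comparison below is to be read beside these ratios. A region in either list was held by 2 of 8 colorectal epithelial markers (CLDN4 and VIL1), 1 of 5 fibroblast markers (COL1A1) and 0 of 4 blood cell markers. Of all 20056 protein-coding genes, 7.80% held one. The marker counts are of bound mRNAs and not of cell identity.

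Some miRNAs tied to these genes by earlier work or by position had regions on their own genes in the same lists. The mature sequences of 5 of them, from RefSeq (GRCh38.p14), are shown as examples found in both lists, with the seed, bases 2 to 8, in capitals. The seed is the part of a miRNA that pairs with its target, and miRNAs that share it are expected to share targets.

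hsa-miR-93-5p: cAAAGUGCuguucgugcagguag
hsa-miR-106b-5p: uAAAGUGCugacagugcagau
hsa-miR-21-5p: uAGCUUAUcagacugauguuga
hsa-miR-34a-5p: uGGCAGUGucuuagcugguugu
hsa-miR-7-5p: uGGAAGACuagugauuuuguuguu

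The miR-93 and miR-106b sequences carry the same seed, that of the miR-17 family, whose reported targets include CDKN1A and TP53INP1. miR-21 has BTG2 among its reported targets. miR-34a is itself made from a p53-induced gene, and MIR7-2, a copy of the miR-7 gene, lies within the span of AEN. The genes MIR93, MIR106B, MIR21, MIR34A and MIR7-1 each held 1 region in the 5xA list and 1 in the WT list, and both regions covered the whole mature sequence. Of 50 miRNA genes looked up, 15 held a region with 5xA and 11 with WT. The 50 were chosen by name with earlier results of these data known. No share over all miRNA genes is given here, so these counts have no background to be read against. Those with 0 regions in both lists included MIR17 and MIR20A, which encode further members of the miR-17 family, and MIR7-3. They also included MIR192, MIR194-1, MIR194-2, MIR215, MIR143 and MIR145, whose miRNAs have MDM2 among their reported targets, and MIR155 and MIR130B, whose miRNAs have TP53INP1. The bases under the regions of the p53 targets were not used here, so no seed match was looked for in them, and which miRNA guided AGO2 to a region was not tested.

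The 5xA list held regions in 5 of the 6 genes and the WT list in 5. CDKN1A, MDM2, BTG2 and TP53INP1 were in both, AEN was in the 5xA list alone and PERP in the WT list alone. Among all 1564 protein-coding genes with a region in either list, 38.4% were in both, 57.0% in the 5xA list alone and 4.60% in the WT list alone. The regions of the 6 genes covered 6073 bases with 5xA and 3344 bases with WT, a ratio of 1.82, against 2.35 for the whole lists. The bases covered with 5xA and not with WT numbered 1040 in BTG2, 689 in MDM2, 638 in TP53INP1, 411 in AEN and 300 in CDKN1A.

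**Figure D1:**
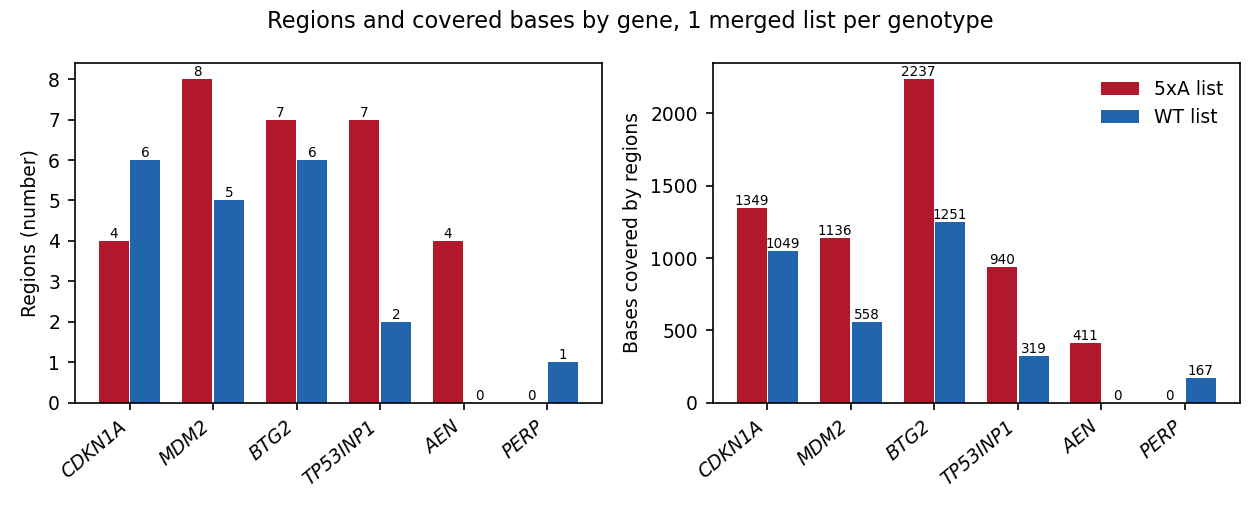
The left panel plots the number of regions and the right panel the bases they cover, for each gene (x axis), with the 5xA list in red and the WT list in blue, 1 merged list per genotype and no error bars. CDKN1A has fewer regions but more covered bases with 5xA (4 and 1349) than with WT (6 and 1049), while AEN has 0 in the WT list and PERP 0 in the 5xA list.

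CDKN1A encodes p21, the inhibitor of cyclin-dependent kinases through which p53 halts the cell cycle. Its gene spans positions 36676463 to 36687332 of chromosome 6 (hg38, plus strand). It held 4 regions with 5xA and 6 regions with WT, so it is among the 6% of the 600 protein-coding genes with regions in both lists that had fewer regions with 5xA. Those 4 regions nevertheless covered 1349 bases, against 1049 bases with WT, a ratio of 1.29. That was below the median ratio over the 600 genes, 1.51, and the ratio of the whole lists, 2.35. More covered bases with 5xA were found in 82.3% of these 600 genes, and in 41.7% of the 36 genes with fewer 5xA regions.

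All CDKN1A regions lay in the last 1421 bases of the gene. In the 5xA list the first ran from 36685912 to 36686689 (778 bases), the second from 36686694 to 36686824 (131 bases), the third from 36686873 to 36687048 (176 bases) and the last from 36687069 to 36687332 (264 bases). In the WT list the same stretch was cut into regions of 96, 190, 289, 146, 149 and 179 bases, from 36685912 to 36687322. The first 5xA region overlapped 4 WT regions, and only 2 regions of the whole 5xA list overlapped so many. It began at the same base as the first WT region. The last 5xA region ended on the final base of the gene span, and the last WT region ended 10 bases before it.

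Base by base, the CDKN1A lists were nested. All 1049 bases covered with WT were also covered with 5xA (100%), and the 5xA list added 300 bases. Over the whole lists, 79.9% of WT bases were also covered with 5xA, and 34.0% of 5xA bases with WT. The added bases lay in the gaps between WT regions, apart from 10 bases past the last WT region. The 1 CDKN1A region found with 5xA only lay 13 bases from the nearest WT region. Within the 1421 bases the 5xA regions covered 94.9% and the WT regions 73.8%. Gaps between neighbouring regions were 4 to 48 bases with 5xA and 5 to 192 bases with WT. When regions within 50 bases of each other were joined, the gene held 1 region with 5xA and 3 with WT, so its lower number with 5xA came with more of the stretch covered and not less.

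BTG2 encodes an antiproliferative protein that binds the CCR4-NOT deadenylase, the same enzyme that miRNA silencing recruits. Its gene is short, from 203305519 to 203309602 of chromosome 1 (4084 bases, plus strand). It held 7 regions with 5xA, covering 2237 bases, and 6 regions with WT, covering 1251 bases. These bases made up 54.8% of the gene span with 5xA and 30.6% with WT, the highest shares of the 6 genes in both lists. More regions with 5xA were found in 49.8% of the 600 genes. By covered bases BTG2 stood at rank 7 of 1492 protein-coding genes in the 5xA list and at rank 16 of 672 in the WT list, where CDKN1A stood at rank 31 and rank 21.

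The main BTG2 cluster ran from 203307104 to 203309481, and the 5xA regions covered 90.3% of it, against 52.6% with WT. The 5xA regions in it were 414, 291, 109, 753, 488 and 93 bases wide in the direction of transcription. The WT regions were 146, 485, 134, 215, 170 and 101 bases wide. All 6 WT regions overlapped a 5xA region, and 1197 of their 1251 bases (95.7%) were also covered with 5xA. Both the 753-base and the 488-base 5xA regions overlapped 2 WT regions each, as 44 regions of the whole 5xA list did with 2 or more. The upstream part of the cluster, from 203307104 to 203307517, was covered with 5xA only, and 257 bases separated it from the nearest WT region.

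The remaining BTG2 region, with 5xA only, lay at the other end of the gene. It ran from 203305542 to 203305630 (89 bases) and began 23 bases after the gene start, 2144 bases from the nearest WT region. Of 2167 5xA regions in protein-coding genes of known strand, 2.49% lay within the first 250 bases of the gene, and 2.09% of 863 WT regions did. The RefSeq promoter table reaches into this region, so part of its sequence can be shown. The 30 bases at chr1:203305539-203305568 (GRCh38.p14, plus strand) are given with the 27 bases inside the region in capitals.

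BTG2 gene start: ggtAACGCTGTCTTGTGGACCCGCACTTCC

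MDM2 encodes the ubiquitin ligase that marks p53 for degradation and is induced by p53, which closes a negative feedback loop. The gene spans 68808172 to 68850686 of chromosome 12 (plus strand). It held 8 regions with 5xA, covering 1136 bases, and 5 regions with WT, covering 558 bases, a ratio of 2.04. The median ratio over the 600 genes with regions in both lists was 1.51, and the ratio of the whole lists was 2.35. Regions were 70 to 208 bases wide with 5xA and 87 to 129 bases wide with WT, so no MDM2 region came near the widest ones of CDKN1A and BTG2.

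All MDM2 regions lay between 68839704 and 68841942, in 2239 bases of which the 5xA regions covered 50.7% and the WT regions 24.9%. In the 5xA list they began at 68839704, 68840158, 68840383, 68840530, 68841025, 68841210, 68841414 and 68841822. In the WT list they began at 68839748, 68840158, 68840862, 68841024 and 68841258. Of these, 4 of 8 5xA regions and 4 of 5 WT regions overlapped the other list, and the 4 overlaps paired 1 region with 1 region. The 5xA region was the wider in all 4 pairs, by 208 against 115, 159 against 129, 89 against 87 and 198 against 117 bases. The WT region from 68840862 to 68840971 had no 5xA counterpart and lay 53 bases from the nearest 5xA region. The 5xA regions without a WT counterpart lay 39 to 447 bases from the nearest WT region, inside or at the edge of the same cluster.

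The MDM2 cluster was not at the end of the annotated gene. Region midpoints lay 8804 to 10879 bases from the downstream end of the RefSeq span with 5xA and 9370 to 10881 bases with WT. The span takes in all RefSeq transcripts of MDM2, predicted models included, and the end of each single transcript was not used here. CPM, a neighbouring gene on the minus strand, overlaps the last part of the span from 68842197 on, downstream of every MDM2 region.

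**Figure D2:**
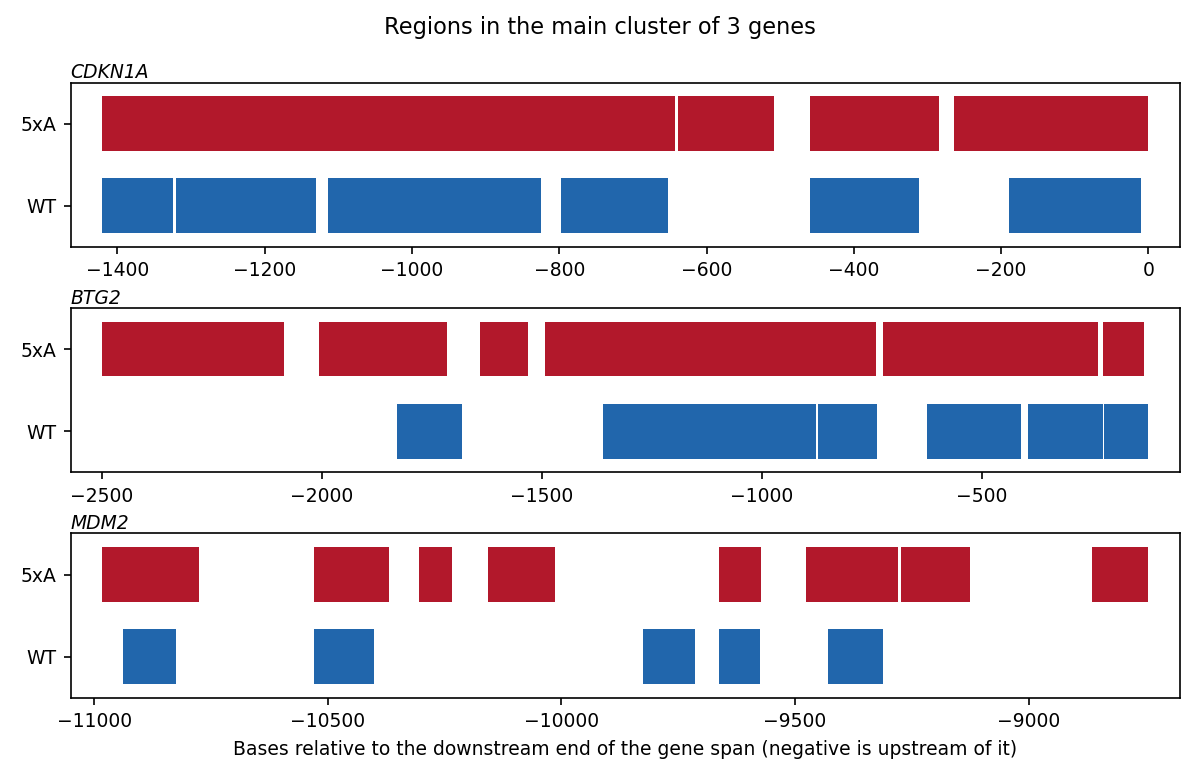
Each panel draws the regions of 1 gene as boxes to scale, 5xA above in red and WT below in blue, against the distance in bases from the downstream end of the gene span (x axis, negative values are upstream). The 5xA boxes cover 94.9% of the CDKN1A cluster, 90.3% of the BTG2 cluster and 50.7% of the MDM2 cluster, against 73.8%, 52.6% and 24.9% for the WT boxes; the BTG2 region at the gene start lies outside the panel.

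TP53INP1 encodes a stress protein that takes part in autophagy and in p53-dependent cell death. It lies on the minus strand of chromosome 8, from 94925972 to 94949378. It held 7 regions with 5xA, covering 940 bases, and 2 regions with WT, covering 319 bases, a ratio of 2.95 and the highest of the 4 genes with regions in both lists. The median over the 600 genes was 1.51 and the ratio of the whole lists 2.35. Both WT regions were shared, and 302 of their 319 bases (94.7%) were also covered with 5xA. Every TP53INP1 region also lies in the span of NDUFAF6, whose strand was not used here, and with regions that overlap another gene left out TP53INP1 kept 0 regions in both lists.

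The regions common to both lists lay away from the downstream end. One pair lay at the gene start, where the 5xA region from 94949152 to 94949341 began 37 bases and the WT region from 94949150 to 94949356 began 22 bases from the upstream end of the span. The other pair lay inside the gene, from 94940924 to 94941091 with 5xA and from 94940964 to 94941075 with WT, with midpoints 15035 and 15047 bases from the downstream end. The remaining 5 regions, all with 5xA only, had midpoints 256, 372, 2803, 3120 and 4590 bases from the downstream end, the side where the 3' UTR lies. The WT region nearest to any of them was 10323 bases away. TP53INP1 thus had its 2 shared positions outside the last 5 kb of the gene and its 5xA-only positions within it.

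**Figure D3:**
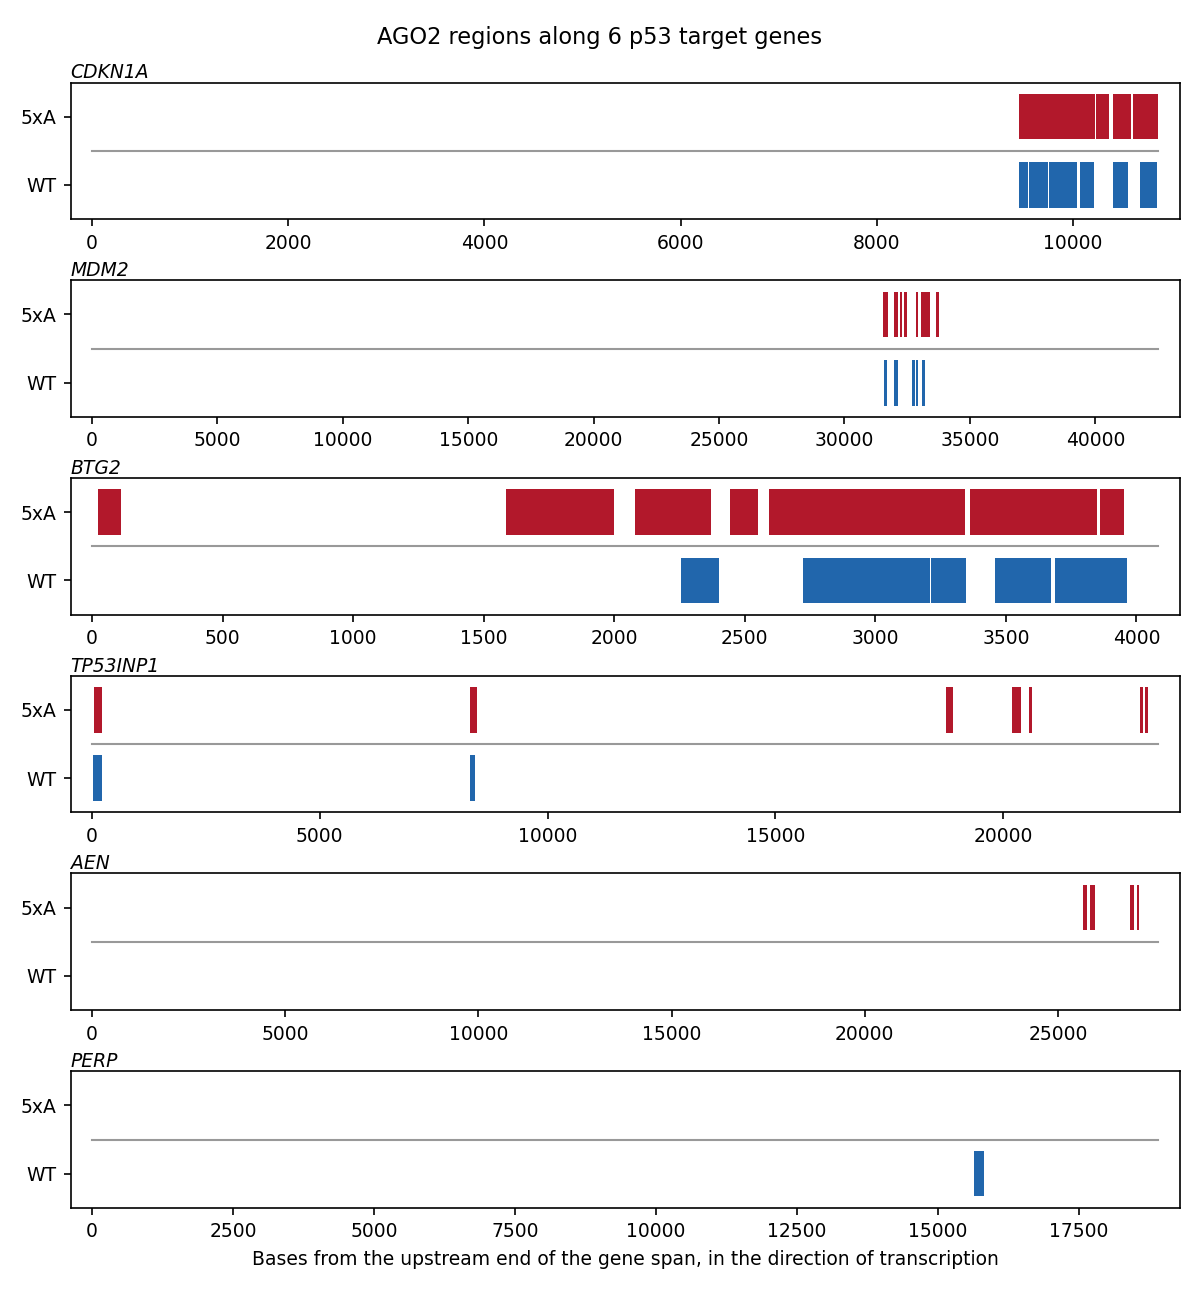
Each panel draws 1 gene from the upstream to the downstream end of its RefSeq span (x axis, bases from the upstream end, to scale within a panel), with 5xA regions in red above the grey gene line and WT regions in blue below it. Regions sit near the right end in CDKN1A and AEN, as do 5 of the 7 5xA regions in TP53INP1, and BTG2 has 1 5xA region at the gene start and its others from 1585 bases on, while those of MDM2 lie 8804 to 10881 bases before the end and those common to both lists in TP53INP1 lie at the gene start and inside the gene.

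AEN encodes a p53-induced exonuclease that promotes apoptosis. It lies on the plus strand of chromosome 15, from 88604683 to 88632281. It held 4 regions with 5xA, covering 411 bases, and 0 regions with WT. Among the 892 protein-coding genes with regions in the 5xA list only, 1.01% held 4 or more. The regions were 115, 116, 110 and 70 bases wide and began at 88630319, 88630524, 88631537 and 88631720, all with midpoints 527 to 1905 bases from the downstream gene end. None was as wide as the 5xA regions that spanned several WT regions in CDKN1A and BTG2. The gene span also holds MIR7-2, MIR1179 and MIR3529, which had 0 regions in both lists, so the AEN regions lay at none of these miRNA genes.

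PERP encodes a membrane protein of cell junctions that is induced by p53 during apoptosis. It lies on the minus strand of chromosome 6, from 138088505 to 138107419. It held 0 regions with 5xA and 1 region with WT, from 138091601 to 138091767, with its midpoint 3179 bases from the downstream gene end. The region was 167 bases wide. Of the 72 protein-coding genes with regions in the WT list only, 69 had fewer covered bases, and their median was 84 bases.

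Taken over the 6 genes, 13 of 30 5xA regions (43.3%) overlapped a WT region, against 32.3% of the whole 5xA list, and 18 of 20 WT regions (90%) overlapped a 5xA region, against 81.3% of the whole WT list. The WT regions without a counterpart were 1 in MDM2 and the 1 in PERP. In bases, 49.3% of what 5xA covered was also covered with WT, and 89.6% of what WT covered was also covered with 5xA. With a reciprocal overlap of 50% as the rule, 10 regions of each list were shared, since some 5xA regions then no longer matched shorter WT regions that they overlapped. The regions of a gene share its RNA and are not independent of each other.

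In 10 cases 1 5xA region and 1 WT region overlapped each other and no other. The 5xA region was the wider in 8 of these pairs, and in 66.8% of the 847 such pairs of the whole lists. The 2 exceptions were the last pair of BTG2 (93 bases with 5xA, 101 bases with WT) and the gene start pair of TP53INP1 (190 bases with 5xA, 207 bases with WT). The upstream edge fell on the same base in 2 pairs, in CDKN1A at 36686873 and in MDM2 at 68840158. That was so in 9.56% of the 847 pairs.

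Midpoints within 5 kb of the downstream gene end were found for 20 of 30 5xA regions (66.7%) and 13 of 20 WT regions (65%). In all protein-coding genes of known strand the shares were 82.0% of 2167 5xA regions and 84.7% of 863 WT regions. The BTG2 span is shorter than 5 kb, so its regions meet this limit wherever they lie. In the 5 longer genes the counts were 13 of 23 with 5xA (56.5%) and 7 of 14 with WT (50%), against 80.3% of 1989 5xA regions and 83.1% of 780 WT regions in all genes with spans over 5 kb. These 5 genes differed among themselves: every region of CDKN1A, AEN and PERP lay within 5 kb of the end, 0 of MDM2 did, and in TP53INP1 5 of 7 did with 5xA and 0 of 2 with WT. The 8 5xA and 5 WT regions of MDM2 thus lower these shares. They are measured to the end of a span that takes in predicted transcripts, so their distance from the end of the transcript that was bound is unknown.

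**Figure D4:**
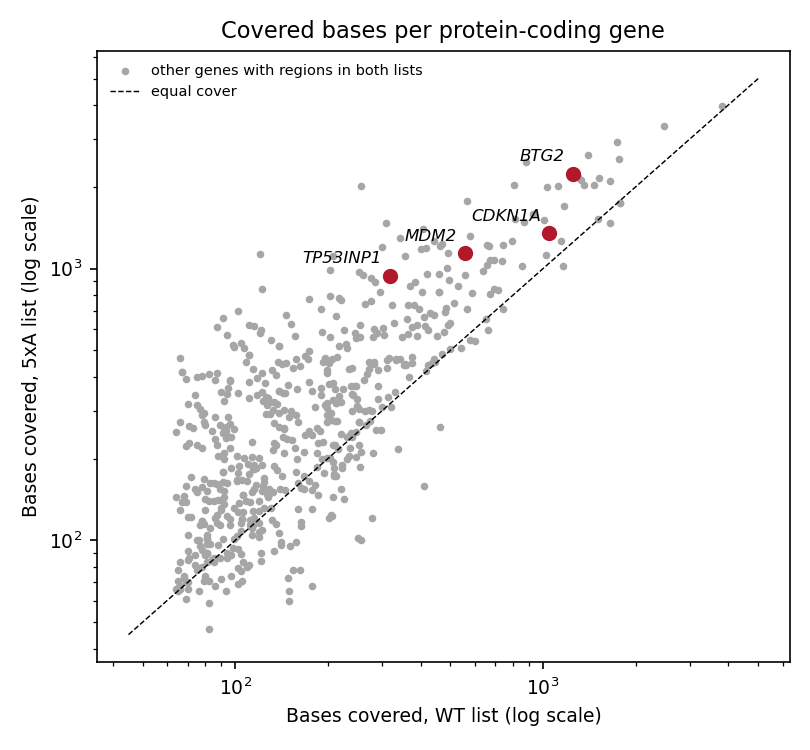
Each point is 1 of the 600 protein-coding genes with regions in both lists, placed by the bases covered with WT (x axis) and with 5xA (y axis), both on log scales, with equal cover on the dashed line. CDKN1A, MDM2, BTG2 and TP53INP1, in red, lie above the line, as 82.3% of all 600 genes do; AEN and PERP are not drawn, since each is at 0 in 1 list.

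Other genes of the pathway were taken from a list of 69 p53 targets that includes the 6. Beyond the 6, 63 remained. Both lists held regions of 11 of them, the 5xA list alone of 9, the WT list alone of 1 (TNFRSF10A) and neither list of 42. Together 33.3% of the 63 held a region, against 7.80% of all 20056 protein-coding genes, of which 2.99% were in both lists, 4.45% in the 5xA list alone and 0.359% in the WT list alone. That background counts genes whether or not HCT116 cells transcribe them. The list of targets was chosen with earlier results of these data known, so the 33.3% is a description and was not tested. Of the 11 genes, 5 had more 5xA than WT regions, 5 had equal numbers and 1 had fewer.

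The gene with fewer was BBC3, whose product PUMA triggers apoptosis by binding BCL2 proteins. It held 3 regions with 5xA, covering 749 bases, and 4 regions with WT, covering 514 bases, so it joined CDKN1A in having fewer but longer 5xA regions. PMAIP1, which encodes the related protein NOXA, held 2 and 1 regions with 5xA and WT, and 346 and 239 bases. GDF15, a secreted stress cytokine, held 3 regions (671 bases) with 5xA and 1 region (213 bases) with WT. SFN, which encodes the 14-3-3 sigma protein of the G2 arrest, held 2 regions in each list, covering 332 bases with 5xA and 248 bases with WT, and every one of them was shared.

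TNFRSF10B, which encodes a TRAIL death receptor, held 2 regions in each list, of 216 bases with 5xA and 215 bases with WT in all, and only 1 in each list was shared. FBXW7, the substrate receptor of a ubiquitin ligase for cyclin E, held 2 regions (342 bases) with 5xA and 1 region (241 bases) with WT. SUSD6 held 2 regions (309 bases) with 5xA and 1 region (181 bases) with WT. PLXNB2, a semaphorin receptor, and RAP2B, a small GTPase, held 3 regions each with 5xA (449 and 307 bases) and 0 with WT, as AEN did with 4.

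A region was held by 15% of 20 regulators of p53, against 7.80% of all protein-coding genes. Of the 20 regulators, 2 were in both lists, 1 was in the 5xA list alone and 17 were in neither. HIPK2, a kinase that phosphorylates p53, led them with 7 regions (1109 bases) with 5xA and 3 regions (357 bases) with WT, and all 3 WT regions were shared. The strand of HIPK2 was not known here, so its regions were counted on either strand. MDM4, the paralog of MDM2, held 0 regions in both lists. Relatives of the 6 proteins were also counted, and of 11 such genes 2 were in both lists, 1 was in the 5xA list alone and 8 were in neither. Together 27.3% of the 11 held a region, against the same 7.80%. The regulators and relatives were also chosen with earlier results of these data known, and these shares were not tested. CDKN1B, which encodes p27, the relative of p21, held 3 regions in each list (430 bases with 5xA and 312 bases with WT). TOB2, a relative of BTG2, held 3 regions (381 bases) with 5xA and 1 region (111 bases) with WT, and none of them overlapped. BTG1, BTG3 and TP53INP2 held 0 regions in both lists.

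**Figure D5:**
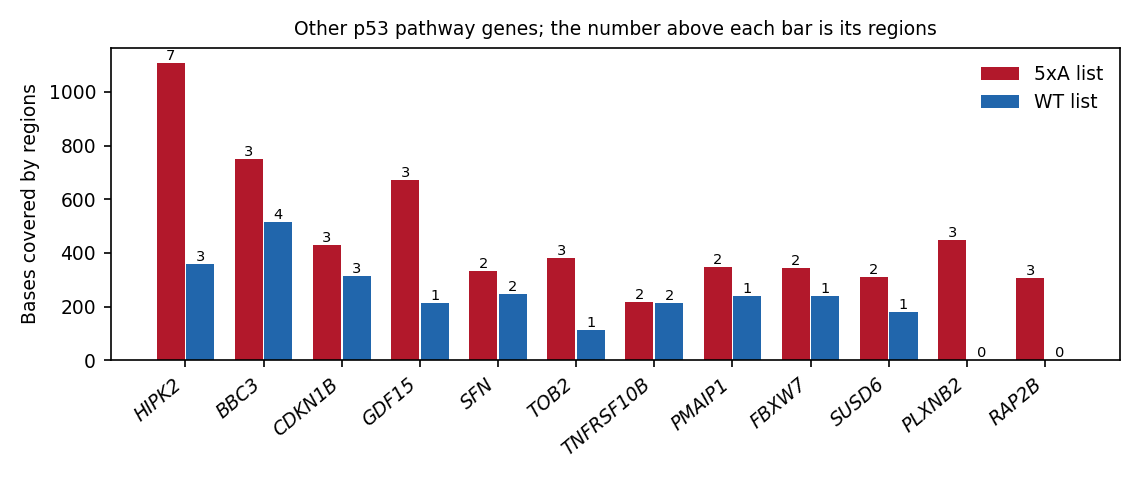
Bars give the bases covered by regions (y axis) for 12 other genes of the p53 target, regulator and relative lists (x axis), 5xA in red and WT in blue, with the number of regions above each bar; there is 1 merged list per genotype and no error bar. HIPK2 has the most regions, 7 with 5xA and 3 with WT, BBC3 has 3 with 5xA and 4 with WT, and PLXNB2 and RAP2B have 3 with 5xA and 0 with WT.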

How the data were processed

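The deposited files are 1 region list per genotype, and the labels name the same file for both replicates of a genotype. The score column the authors deposited is 0 in every row and was not used, and the start, end and strand of each region were used. Coordinates follow hg38; the submitters' processing notes name cutadapt 1.9.1 and TopHat2. The sources used here do not give the peak caller, its threshold or the merge rule. No library totals were used, so depth per sample and precision are unknown, and no test, interval or replicate error was possible.

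Groups came from the sample titles. Gene spans came from RefSeq on GRCh38.p14, which shares hg38 coordinates. Strand came from the RefSeq promoter and miRNA tables, which gave it for 5 of the 6 members. A strand was used for 15843 of 20056 protein-coding genes, TP53INP1 included. TP53INP1 was taken as minus from general knowledge, and genes of unknown strand took regions on either strand. Among the named p53 targets, regulators and relatives, those of unknown strand were HIPK2, TNFRSF10A and TNFRSF10B. A region counted for every gene span it met. A region was called shared if it met a same-strand region of the other list by 1 base or more. This was computed in Python 3.11.15 and checked against bedtools 2.31.1 and on simulated regions. Gene clusters join regions of either list under 1 kb apart. The members and the gene and miRNA lists were chosen with earlier results of these data known, and the clusters, the first 250 bases, the edges of paired regions and the ranks after seeing the data. The text names all 6 members, and up to 12 other listed genes with most regions, ties going to more covered bases; MDM4, TNFRSF10A, BTG1, BTG3 and TP53INP2 were named beyond this rule. Alternatives changed the overlap rule, strand use, joining of regions and the gene end window. Seed matches were not run, since no genome sequence was used here.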

Additional observations from a re-analysis of the deposited data

How the results depend on the processing

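Each count was recomputed with 1 choice changed at a time, and 90 of 101 alternative values stayed within 1.5 times the reported one. The 90 include the values of PERP with 5xA and AEN with WT, which were 0 under every setting and have no ratio. With a reciprocal overlap of 50%, 10 WT regions of the 6 genes were shared in place of 18. In genes with spans over 5 kb only, a setting chosen after seeing the data that leaves out BTG2, 13 5xA and 7 WT regions lay near the downstream end in place of 20 and 13. The other values that moved belong to single genes. Joining regions within 50 bases left CDKN1A with 1 region with 5xA and 3 with WT, and BTG2 with 4 and 3. Leaving out regions that overlap another gene left TP53INP1 with 0 regions in both lists, since all of them lie in NDUFAF6 too. Covered bases changed little with joining, to 6255 with 5xA and 3415 with WT over the 6 genes. Ignoring strand, or asking for the midpoint in the gene, left 30 and 20 regions. Seed matches were not run. No paired analysis was possible because each deposited list merges both replicates of its genotype, and for the same reason no replicate could be left out. The depth behind each region is unknown, so a gene at 0 in a list may have been bound below the level at which regions were called.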
